A study of Caenorhabditis elegans with 40 samples.

Results

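The synaptic and dense-core vesicle machinery of Caenorhabditis elegans was examined as a set of 41 genes, picked by name among the 42048 features of the deposited tables. The set covers SNARE proteins and their partners, priming and active-zone proteins, endocytosis, transmitter synthesis and loading, axonal transport, dense-core vesicles and peptide processing, channels, synaptic adhesion, and 2 genes of receptor assembly and G protein regulation. All 41 names were found, and their levels were compared over 40 libraries of polyadenylated RNA from whole animals, in 8 groups of 5. Wild-type N2 animals and octr-1(ok371) mutants, a single allele, each gave a group of young adults kept at 20 °C and 3 groups of old adults kept at 15, 20 or 25 °C, all on E. coli OP50. The old adults were on adult day 24 when kept at 15 °C, 14 when kept at 20 °C and 9 when kept at 25 °C. Among old animals temperature and day cannot be told apart. Neither genotype carries a further allele or transgene in the labels.

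A synaptic vesicle is filled with transmitter, docks at the active zone, is primed by UNC-13 and its partners, fuses through SNARE proteins when calcium enters, and is recovered by endocytosis. Dense-core vesicles carry neuropeptides and monoamines, mature in the cell body, travel along the axon and use a partly shared release machinery. Many of these genes were named in C. elegans for uncoordinated movement (unc) or resistance to an inhibitor of cholinesterase (ric), and several also work outside neurons, such as the calcium channel gene egl-19 in muscle and the G protein regulator ric-8 in the early embryo. OCTR-1, which binds octopamine, is a G protein-coupled receptor of neurons.

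Between 27875942 and 40997854 reads per library were assigned to genes. Nothing in the labels says whether the replicates were grown apart. The p-values cover only how far these samples differ from each other, and that may be technical. The deleted gene octr-1 was lower in the mutants in all 4 genotype comparisons, with log2 fold changes of -1.77 in young animals and of -2.73, -2.09 and -2.73 in old animals at 20, 15 and 25 °C (limma adjusted p = 4.50e-06, 4.04e-13, 4.86e-11 and 1.20e-17). Marker genes of neurons, body wall and pharyngeal muscle, intestine, epidermis, germline, sperm and glia were all detected in these whole animals, none of them at 0 in every library. In RNA from whole animals, fewer cells of a type and less RNA per cell cannot be told apart.

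Levels of different genes were set side by side only per kilobase of exon, as CPM (counts scaled to a common library total, with trimmed mean of M-values factors) divided by exon length. Over the 40 libraries snb-1, which encodes the vesicle SNARE synaptobrevin, had the highest mean of the set, 195 CPM per kilobase. The endophilin gene unc-57 followed with 83.6, then ric-7, needed for mitochondria in axons and for neuropeptide release, with 41.8, and the clathrin adaptor gene unc-11 with 37.2. The syntaxin-binding gene unc-18 and ric-8 were close to each other at 22.6 and 22.2, and the synaptojanin gene unc-26 stood at 17.9. At the other end were genes used by 1 transmitter class each. The choline acetyltransferase gene cha-1 had 0.555 CPM per kilobase, the vesicular GABA transporter gene unc-47 0.513, the vesicular monoamine transporter gene cat-1 0.510, the vesicular acetylcholine transporter gene unc-17 0.509, and unc-46, which sorts that GABA transporter to vesicles, 0.223. cha-1 and unc-17 share 66 bases of exon on the same strand and unc-46 shares 51 with a neighbouring gene, so a few of their reads cannot be assigned to 1 gene.

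**Figure D1:**
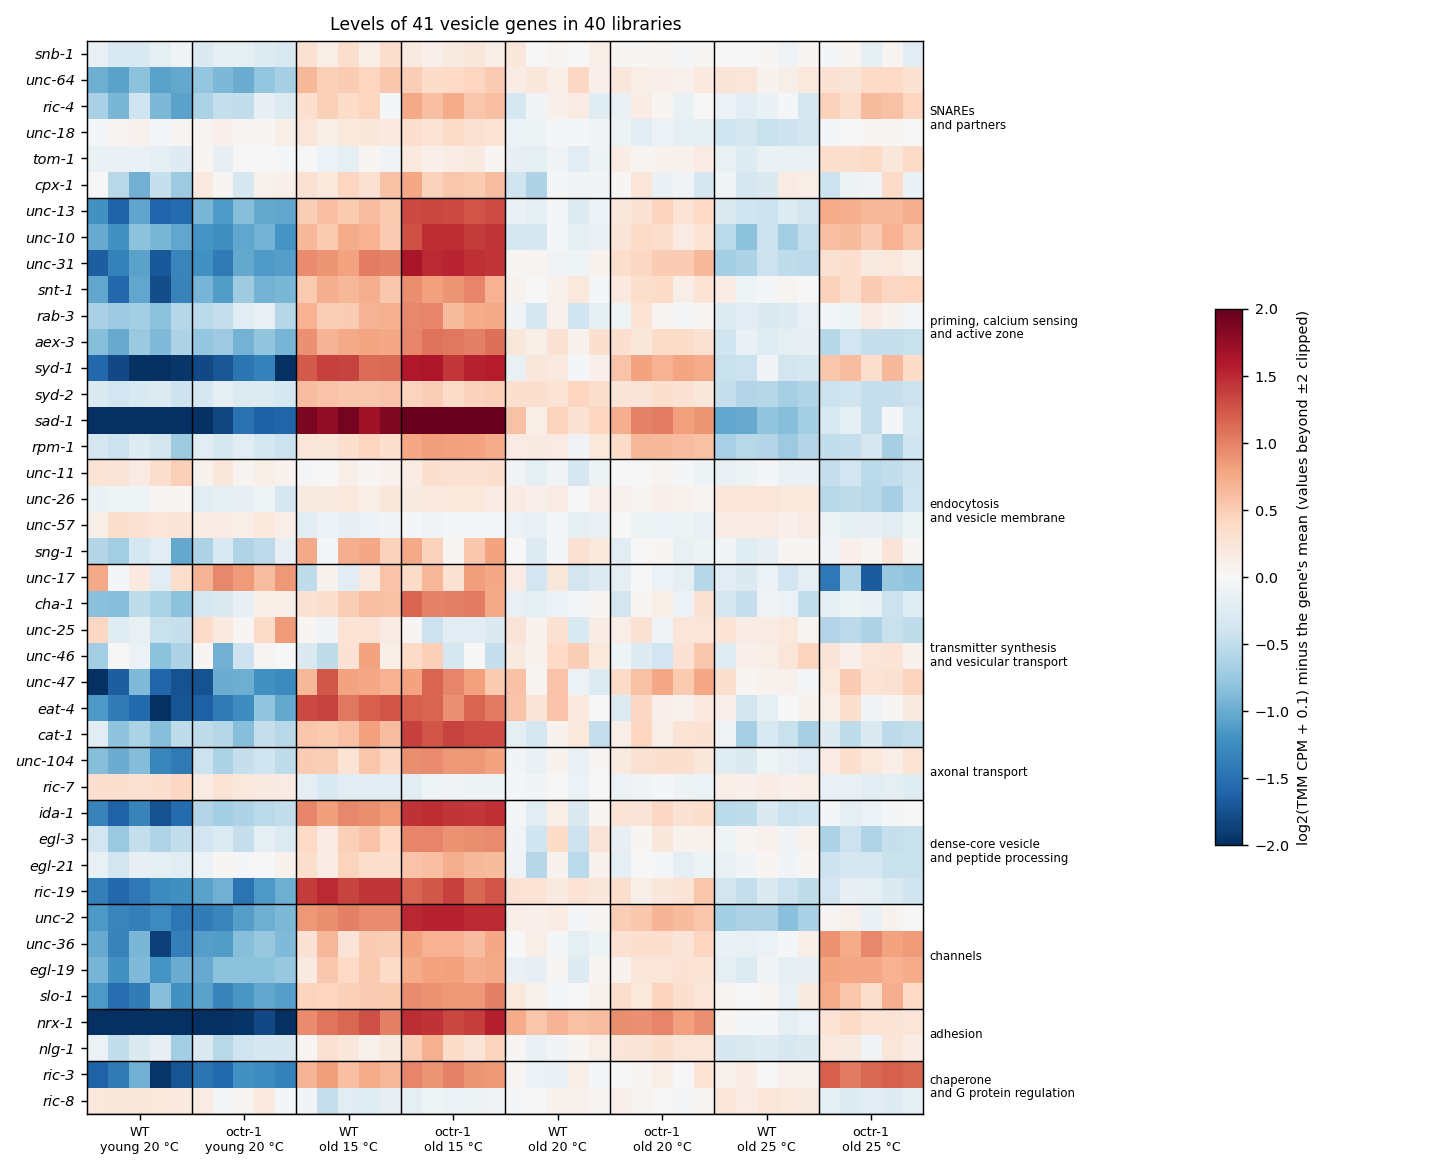
Level of each of the 41 vesicle genes (rows, by role) in each of the 40 libraries (columns, 5 per group), as log2(CPM + 0.1) minus the gene's mean over all libraries, with red above and blue below that mean. The reddest columns are old animals at 15 °C and the bluest are young animals, and sad-1, nrx-1 and syd-1 span the widest range.

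Sums over the 41 genes are not per kilobase, so genes with many reads, such as snb-1 and unc-57, weigh most in them. The sum was 992 ± 19 CPM (SD, n = 5) in young wild type and 974 ± 17.3 in young mutants. The mutant mean was the lower one, although the median log2 fold change of the tested genes was 0.15. In old wild type it was 1097 ± 43.3 at 20 °C, 1318 ± 24.3 at 15 °C and 1055 ± 16.5 at 25 °C. In the same order of temperatures the sums of old mutants were 1159.8 ± 16.2, 1509.5 ± 9.75 and 1040.4 ± 16 CPM. At 25 °C the mutant mean was again below wild type, with a median log2 fold change of 0.20 over the genes. The highest sum in both genotypes was thus that of old animals at 15 °C, and there the 5 mutant libraries (1495 to 1521) lay above the 5 wild-type libraries (1278 to 1338). With library size as the only scaling that order at 15 °C stayed, but the mutant sum at 25 °C (1305 CPM) lay above the mutant sum at 20 °C (1269) and the wild-type sum at 25 °C (1145), and the sums at 20 °C in wild type were 698 CPM in young and 1169 in old animals.

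Whether loss of octr-1 moved these genes was tested within each age and temperature, and the 4 genotype comparisons share no library. In young adults, 39 of the 41 genes passed the minimum of 10 normalized counts in 5 libraries, and 12 were higher and 5 lower in the mutants at an adjusted p under 0.05. Over all genes tested, 19.6% were higher and 24.0% lower. In old adults at 20 °C, 20 of 41 were higher and 0 lower by limma (22.8% and 24.7% over all genes). At an unadjusted p under 0.05 it was 21 and 0, and edgeR and DESeq2 on recovered reads called 20 and 18 higher and 0 lower. At 15 °C, 27 of 40 were higher and 3 lower (24.1% and 27%), and at 25 °C 22 of 41 were higher and 10 lower (36.8% and 39.7%). The median log2 fold change of the tested vesicle genes was 0.15 in young animals and 0.15, 0.24 and 0.20 in old animals at 20, 15 and 25 °C, against -0.01 over all tested genes in each of the 4. Both directions together, the share called was close to that of all genes in young animals (17 of 39 against 43.6%), at 20 °C (20 of 41 against 47.5%) and at 25 °C (32 of 41 against 76.5%), and above it at 15 °C (30 of 40 against 51.1%).

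By role, all 4 channel genes were higher in the mutants at each of the 3 old conditions and called in neither direction in young animals, and both adhesion genes showed the same counts. Of 10 priming, calcium-sensing and active-zone genes, 3 were higher in young animals, 8 at 20 °C, 8 at 15 °C with 1 lower, and 9 at 25 °C with 1 lower. Of 6 SNARE and partner genes, 2, 1, 3 and 4 were higher in the same order and 0 lower by limma. Endocytosis genes went down in young animals (3 of 4) and at 25 °C (3 of 4), with 1 of 4 higher at 20 and at 15 °C. Over all genes the shares higher were 19.6% in young animals and 22.8%, 24.1% and 36.8% at 20, 15 and 25 °C. The shares lower were 24.0%, 24.7%, 27% and 39.7% in the same order. The 1 of 4 endocytosis genes higher at 20 and at 15 °C lies near them. By name, unc-13, the synaptotagmin gene snt-1, the presynaptic kinase gene sad-1, the vesicle kinesin gene unc-104 and the dense-core membrane protein gene ida-1 were higher in all 4 comparisons, 5 of the 39 tested in all, against 4.82% of the 12837 genes tested in all 4. In all 3 old comparisons 16 of 40 were higher, against 9.78% of 15121 genes. snb-1, the synaptogyrin gene sng-1, unc-46 and the vesicular glutamate transporter gene eat-4 were called in none.

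**Figure D2:**
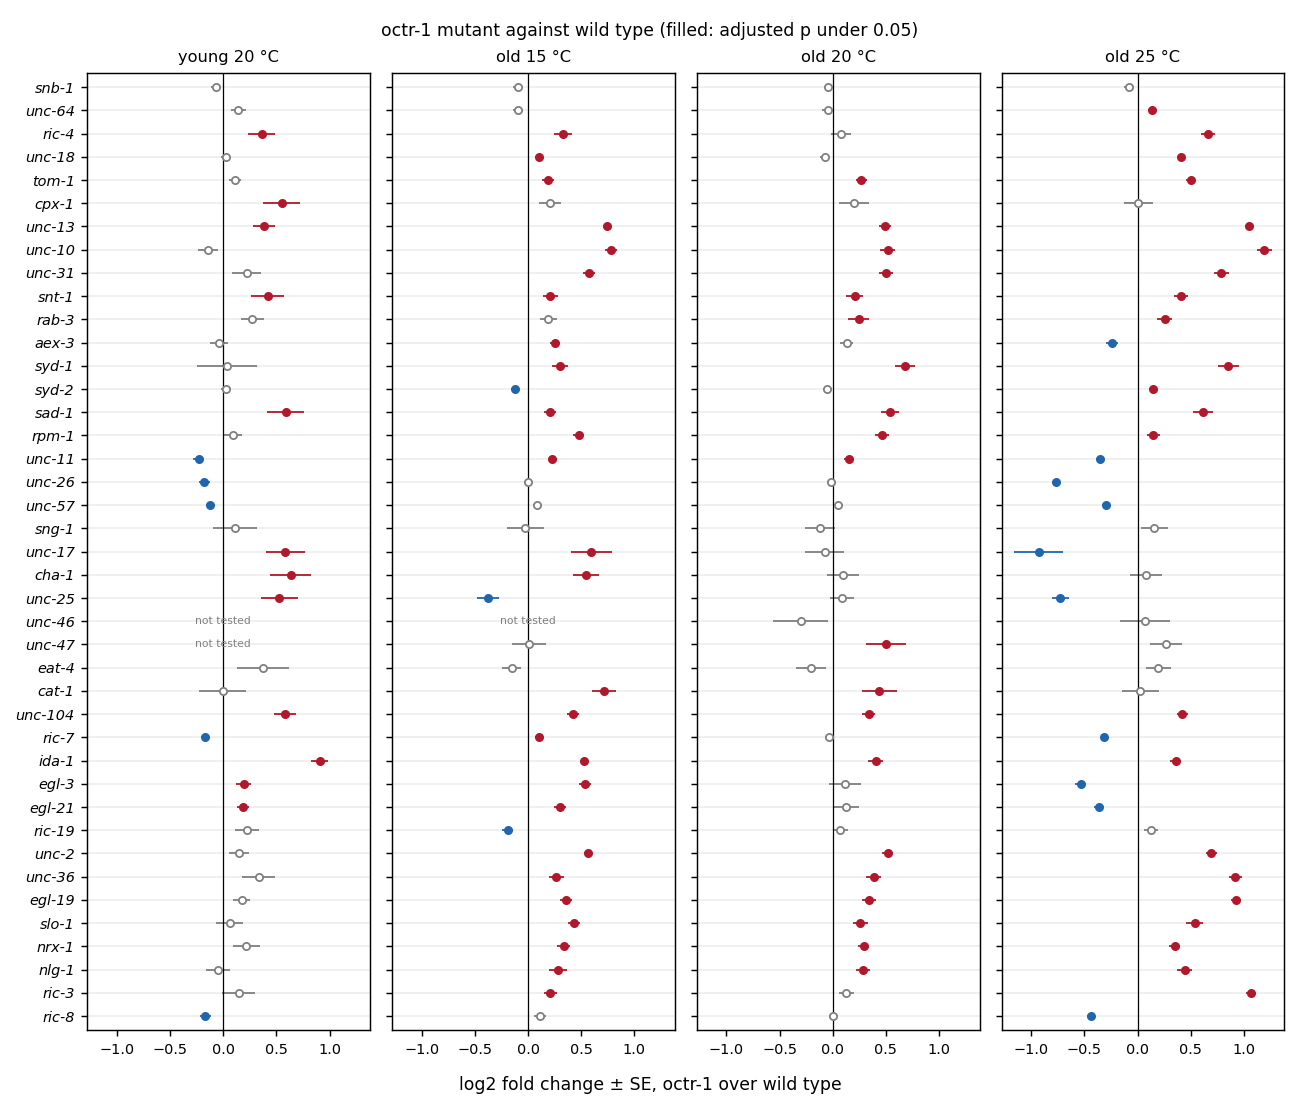
Log2 fold change of octr-1 mutants over wild type (points, with 1 SE to each side) for each vesicle gene for young animals and for old ones at 15, 20 and 25 °C; filled points passed an adjusted p under 0.05, red for higher and blue for lower in mutants. Old animals at 25 °C hold both the largest rises (unc-10, ric-3, unc-13) and the largest falls (unc-17, unc-26, unc-25).

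In young adults the leading change was in a dense-core vesicle gene. ida-1, which encodes a membrane protein of dense-core vesicles, had 269, 220.5, 271, 203 and 233 normalized counts in wild-type replicates 1 to 5 and 450.3, 411, 442, 457 and 476 in the mutants, where a normalized count is a read count divided by the authors' size factor. Every mutant library was above every wild-type library, and ida-1 was 1.88-fold higher (log2 fold change 0.91, SE 0.08; limma adjusted p = 3.51e-07). unc-104, the kinesin that carries vesicle precursors down the axon, had 222, 201, 221, 162 and 150.1 in wild type and 297, 252, 292, 296 and 277 in mutants. The groups did not overlap, and unc-104 was 1.49-fold higher (log2 fold change 0.58, SE 0.10; limma adjusted p = 3.99e-04). egl-21, a carboxypeptidase that trims neuropeptides, had 572, 491, 573, 556 and 550.5 and 583, 635, 623, 623 and 659, again without overlap, and was 1.14-fold higher (log2 fold change 0.19, SE 0.06; limma adjusted p = 0.0126). The proprotein convertase gene egl-3, which cuts neuropeptide precursors before egl-21 acts, was 1.14-fold higher with overlapping groups (449 ± 27.6 against 394 ± 38, SD, n = 5 each).

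The acetylcholine pair was also higher in young mutants, at low counts. cha-1, which makes the transmitter, had 24 ± 3.91 normalized counts against 15.1 ± 2.05 in wild type, and unc-17, which loads it into vesicles, had 39.6 ± 4.0 against 26.8 ± 7.79 (1.55-fold and 1.5-fold higher, limma adjusted p = 0.0144 and 0.0169). unc-25, the glutamate decarboxylase that makes GABA, was 1.44-fold higher (107.6 ± 24.7 against 74.9 ± 21.1). unc-46 and unc-47 stayed under the minimum, with 2 to 7 and 1 to 7 reads per wild-type library and 2 to 8 and 3 to 7 per mutant library. Of the 5 genes that were lower, 3 belong to endocytosis (unc-11, unc-26 and unc-57). ric-7 had 3736, 3698, 3667, 3762 and 3962 in wild type and 3300.0, 3474, 3416, 3262 and 3248 in mutants, and ric-8, which regulates G alpha proteins, had 1514, 1533, 1539, 1536 and 1503 and 1465, 1257, 1354, 1465 and 1263. Both genes had non-overlapping groups with small differences, ric-7 1.13-fold lower (log2 fold change -0.17, SE 0.04; limma adjusted p = 0.00121) and ric-8 1.12-fold lower (log2 fold change -0.17, SE 0.05; limma adjusted p = 0.0105), and neither passed when library size was the only scaling. With that scaling 19 of the 39 genes were higher and 1 lower in young mutants. Without wild-type replicate 4, 7 genes were higher in place of 12, with ric-4, snt-1, unc-17, unc-25 and egl-3 no longer called, and without wild-type replicate 2 the number was 8. Sperm markers were higher in 6 of 7 and germline markers lower in 13 of 13 in these young mutants. Epidermis markers were 4 higher and 0 lower of 8 (median log2 fold change 0.45), glia markers 3 higher and 0 lower of 5 and neuron markers 3 higher and 2 lower of 12, and the part of any of these in the counts was not tested.

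At 20 °C in old animals the changes were all rises, and 4 priming, assembly and channel genes led them. syd-1, which assembles presynaptic sites, had 88.0, 116.2, 113, 95.8 and 106 normalized counts in wild type and 149, 176, 163, 174 and 167 in mutants. The mutant libraries were all higher, and syd-1 was 1.6-fold higher (log2 fold change 0.68, SE 0.09; limma adjusted p = 8.04e-06). sad-1, the kinase that works with it in presynaptic assembly, had 278, 199, 249.9, 224 and 246 and 308, 372, 379, 329.5 and 343. Again no library overlapped, and sad-1 was 1.45-fold higher (log2 fold change 0.54, SE 0.09; limma adjusted p = 4.22e-05). The presynaptic calcium channel gene unc-2 had 863, 851, 879, 767 and 812 in wild type and 1130.0, 1166, 1280.0, 1232 and 1166 in mutants. It was 1.43-fold higher (log2 fold change 0.52, SE 0.05; limma adjusted p = 1.28e-07), with a gap between the groups. unc-10, which encodes the active-zone protein RIM, had 321, 323, 403, 356 and 367 and 497, 541, 527, 462 and 499.8. It too was higher in every mutant library, 1.43-fold higher (log2 fold change 0.52, SE 0.07; limma adjusted p = 6.31e-06).

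Other rises at 20 °C without overlap included unc-13 (1.41-fold), unc-31, which serves dense-core vesicle release (1.41-fold), and unc-104 (1.26-fold). So did the ubiquitin ligase gene rpm-1 (1.38-fold), ida-1 (1.32-fold) and the calcium channel subunit genes unc-36 and egl-19 (1.3-fold and 1.27-fold). The potassium channel gene slo-1 (1.20-fold), the neurexin gene nrx-1 (1.22-fold) and its partner nlg-1, neuroligin (1.22-fold), also rose without overlap. How many of all genes had groups without overlap was not counted. Of the core SNARE genes, snb-1 had 5647 ± 93.8 normalized counts against 5819 ± 395, the syntaxin gene unc-64 1103 ± 49.4 against 1141 ± 103, and ric-4, which encodes the SNARE SNAP-25, 254 ± 22.5 against 243 ± 36.3, none past the threshold. tom-1, the tomosyn gene whose product holds back release, was the 1 gene of that group that rose (1.20-fold, 759 ± 27.2 against 631 ± 30.2, without overlap). The peptide-processing genes egl-3 and egl-21 did not pass here, and wild-type replicates 2 and 4 were low for both. egl-3 had 22.2, 17.6, 29.8, 17.2 and 27.7 CPM in wild type and 20.6, 23.8, 27.1, 24.2 and 24.5 in mutants. egl-21 had 24.4, 17.3, 26.9, 17.8 and 27.3 CPM in wild type and 22.6, 25.9, 25.1, 22.7 and 24 in mutants. Neuron markers outside the set were 4 higher and 1 lower of 13, with a median log2 fold change of 0.10. Their summed levels were 1016 to 1096 CPM in mutants and 847 to 890.3 in wild type. In sums of markers, here and below, genes with many reads weigh most. Sperm markers were 7 higher and 0 lower of 7 (median log2 fold change 1.81), glia markers 3 higher and 0 lower of 6 and epidermis markers 1 higher and 4 lower of 8. The part of any of these in the rises was not tested.

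At 15 °C, on day 24, the mutants differed in 30 of 40 genes, against 51.1% of all genes. unc-10 had 619, 562, 655, 638 and 555.2 normalized counts in wild type and 944, 1084, 1088, 1030.0 and 1054 in mutants. It was 1.72-fold higher (log2 fold change 0.78, SE 0.06; limma adjusted p = 5.21e-09), and the lowest mutant library was far above the highest wild-type library. unc-13, the priming factor that opens syntaxin for fusion, had 1061, 1144, 1086, 1154 and 1080.0 and 1871, 1891, 1874, 1782 and 1834. The mutant values were all higher and tightly grouped, and unc-13 was 1.67-fold higher (log2 fold change 0.74, SE 0.04; limma adjusted p = 1.63e-10). cat-1, which loads dopamine, serotonin and octopamine into vesicles, had 46, 45.0, 47.1, 56.6 and 48.2 and 83.1, 76.8, 82.0, 79.5 and 79.3. It was 1.64-fold higher (log2 fold change 0.71, SE 0.11; limma adjusted p = 3.16e-05) with no overlap, at a count near 50 in wild type. unc-31 had 476, 455, 431, 502 and 491 and 764, 692, 708, 679 and 664. It was 1.49-fold higher (log2 fold change 0.57, SE 0.06; limma adjusted p = 2.39e-07) and again did not overlap.

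Of 4 dense-core and peptide genes, 3 rose at 15 °C and 1 fell. ida-1 was 1.44-fold higher (2522 ± 43.2 against 1754 ± 83.2), egl-3 1.45-fold (1491 ± 33.3 against 1032 ± 105) and egl-21 1.23-fold (1343 ± 56.5 against 1092 ± 81.5), each without overlap. The fourth gene of that group, ric-19, which acts in dense-core vesicle maturation, was 1.14-fold lower (792 ± 48.9 against 904 ± 32.5). syd-2, the liprin-alpha scaffold of the active zone, had 2278, 2200.0, 2170.0, 2167 and 2207 normalized counts in wild type and 2013, 2076, 1936, 2037 and 2052 in mutants. Its mutant libraries were all lower, by little: syd-2 was 1.09-fold lower (log2 fold change -0.12, SE 0.04; limma adjusted p = 0.00730). The transmitter genes split. cha-1 was 1.45-fold and unc-17 1.51-fold higher, unc-25 was 1.30-fold lower (96.0 ± 11.6 against 125 ± 12.9), and eat-4 and unc-47 did not pass (133 ± 11 against 148 ± 11.8, and 43.7 ± 7.80 against 43.4 ± 8.34). Beside these, neuron markers were 5 higher and 1 lower of 14, with a median log2 fold change of 0.07. Their summed level, in which genes with many reads weigh most, was 1257 to 1317 CPM against 942 to 1023 in wild type. Intestine markers were 0 higher and 7 lower of 8 and germline markers 6 higher and 0 lower of 13. Sperm markers were 7 higher and 0 lower of 7 (median log2 fold change 1.23), glia markers 4 higher and 0 lower of 6 and epidermis markers 1 higher and 4 lower of 8 (median -0.67). The part of these markers' tissues was not tested.

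At 25 °C, on day 9, 22 of 41 genes were higher and 10 lower in mutants. Over all genes 36.8% were higher and 39.7% lower, so changes in both directions were not particular to the set. unc-10 had 283, 234, 312, 257 and 301 normalized counts in wild type and 637, 654, 594, 676 and 606 in mutants. It was 2.29-fold higher (log2 fold change 1.19, SE 0.07; limma adjusted p = 9.24e-14), the largest rise among the 41 genes in any of the 4 genotype comparisons. ric-3, a chaperone for nicotinic acetylcholine receptors that is also used in muscle, had 328, 344, 317, 329.7 and 330.1 and 719, 649, 694, 714 and 694. It was 2.10-fold higher (log2 fold change 1.07, SE 0.05; limma adjusted p = 1.06e-15), with both groups tight and far apart. unc-13 had 651, 609, 599, 663 and 626 and 1347, 1337, 1279, 1244 and 1328. It was 2.08-fold higher (log2 fold change 1.05, SE 0.04; limma adjusted p = 8.93e-17), with no overlap. egl-19, the L-type calcium channel of muscle and neurons, had 644, 602, 712, 646 and 657 and 1266, 1267, 1251, 1187 and 1229. It was 1.90-fold higher (log2 fold change 0.93, SE 0.04; limma adjusted p = 3.10e-15), likewise with no overlap.

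The 10 falls at 25 °C were those of unc-11, unc-26 and unc-57 in endocytosis, unc-25 and unc-17 in transmitter synthesis and loading, egl-3 and egl-21 in peptide processing, ric-7 in axonal transport, the priming-group gene aex-3, and ric-8. unc-26, whose phosphatase uncoats endocytosed vesicles, had 2818, 2826, 2866, 2790.0 and 2804 normalized counts in wild type and 1640.0, 1697, 1638, 1503 and 1825 in mutants. Every mutant library was lower, and unc-26 was 1.70-fold lower (log2 fold change -0.77, SE 0.04; limma adjusted p = 1.89e-14). unc-25 had 146, 134, 136, 139.5 and 127 and 79.2, 83.2, 77.8, 86.8 and 83.8. It was 1.65-fold lower (log2 fold change -0.73, SE 0.08; limma adjusted p = 3.21e-08), without overlap. egl-3 had 780.5, 857, 888, 799.9 and 881 and 539, 621, 546, 596 and 606. It was 1.45-fold lower (log2 fold change -0.53, SE 0.05; limma adjusted p = 1.50e-09), and its partner egl-21 was 1.29-fold lower (701 ± 28.5 against 904 ± 53.7). ric-8 had 2248, 2143, 2282, 2201 and 2186 and 1670.0, 1588, 1633, 1579 and 1680.0. It was 1.36-fold lower (log2 fold change -0.44, SE 0.03; limma adjusted p = 2.33e-11), and the endocytosis genes unc-11 and unc-57 were 1.28-fold and 1.23-fold lower. ric-7 was 1.24-fold lower (3797 ± 117 against 4723 ± 85.3) and aex-3, which encodes an exchange factor for RAB-3, 1.18-fold lower with overlapping groups (376 ± 17.4 against 446 ± 33). unc-17 had the deepest fold among the falls, 1.91-fold, at low counts (14.4 ± 5.37 against 26.9 ± 2.18, SD, n = 5 each), while cha-1 did not pass (32.7 ± 3.28 against 31.1 ± 4.79).

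Among SNARE genes and their partners, 4 of 6 were higher at 25 °C, against 36.8% of all genes. ric-4 was 1.58-fold, tom-1 1.41-fold, unc-18 1.33-fold and unc-64 1.10-fold higher, while snb-1 (5367 ± 476 against 5644 ± 173) and the complexin gene cpx-1 (74.1 ± 16.2 against 73.3 ± 12.3) did not pass. Marker genes of other tissues moved at the same time. All 5 pharyngeal muscle markers were higher (median log2 fold change 1.45; summed level 122 to 139 CPM in mutants and 46.2 to 55.5 in wild type), body wall muscle markers were 2 higher and 8 lower of 10 (689.9 to 783 and 928 to 1007), and intestine markers 0 higher and 8 lower of 8 (265 to 296 and 526 to 550.2). Germline markers were 0 higher and 12 lower of 13 (4329.5 to 4595 and 6676 to 7155). Neuron markers were 4 higher and 3 lower of 12 (675 to 695 and 630.2 to 657), with a median log2 fold change of 0.05. Epidermis markers were 1 higher and 7 lower of 8 (median log2 fold change -1.82; 76.6 to 83.1 and 169 to 178) and sperm markers 7 higher and 0 lower of 7 (median 1.45). No marker gene was at 0 in every library, and the part of these tissues in the values of egl-19, ric-3 or any other vesicle gene was not tested. With library size as the only scaling the median of all genes in this comparison moved by 0.21 on the log2 scale, and 27 of the 41 genes were higher and 9 lower.

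**Figure D3:**
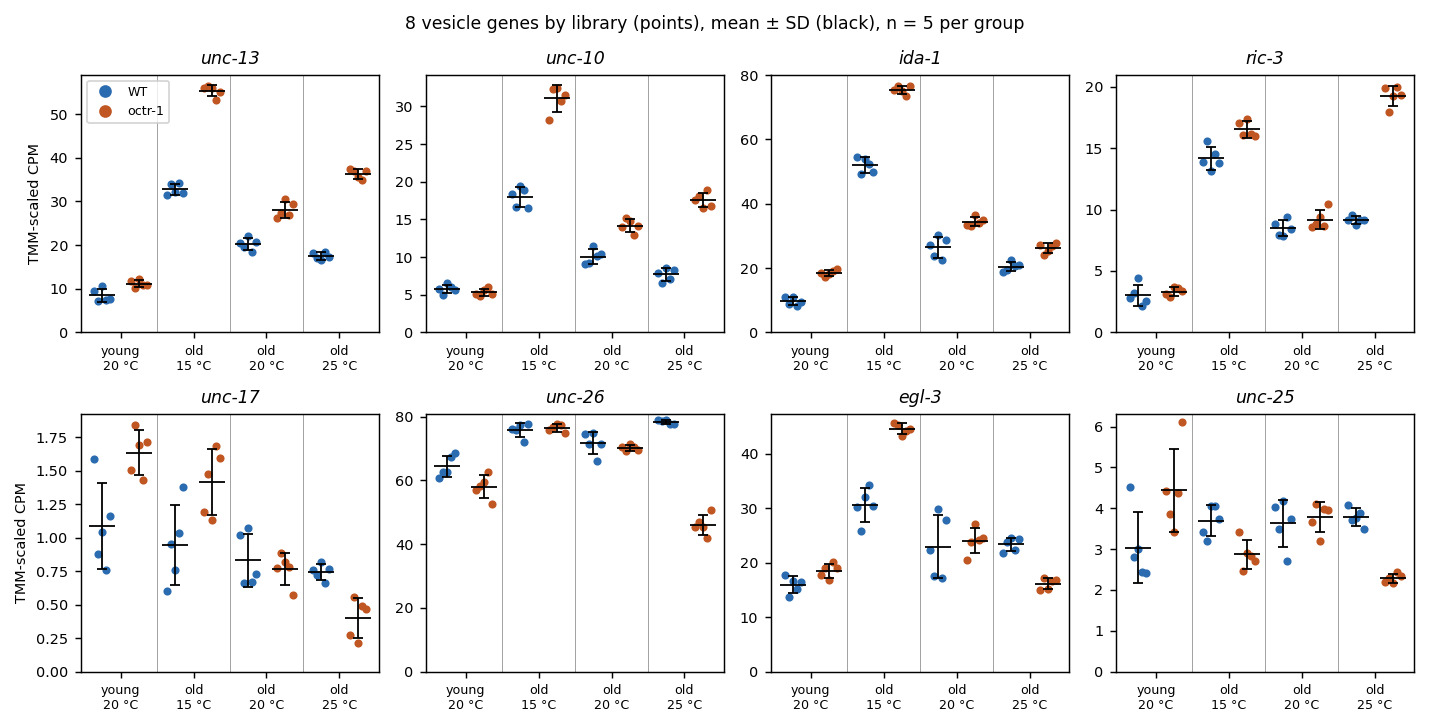
CPM of unc-13, unc-10, ida-1, ric-3, unc-17, unc-26, egl-3 and unc-25 in each library (points) with mean and SD (black), n = 5 per group, for wild type and octr-1 mutants among young animals and among old ones at 20, 15 and 25 °C. The mutant points of unc-10 and unc-13 lie above wild type in the 3 old conditions, and those of unc-26, egl-3 and unc-25 lie below it at 25 °C.

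Whether the octr-1 effect itself differed between conditions was tested as a genotype-by-condition term on whole reads with edgeR; the terms and the comparisons above share libraries. Between old and young animals at 20 °C, 6 of 41 genes had a higher effect in old animals and 1 a lower one (11.1% and 16.7% over all genes; 27.8% both ways). unc-10 had 5.74, 4.93, 6.49, 6.08 and 5.61 CPM in young wild type and 5.07, 4.88, 5.57, 5.98 and 5.06 in young mutants, groups that overlap, against the separated groups at day 14. The effect was higher in old animals by 0.64 on the log2 scale (SE 0.12, edgeR adjusted p = 1.30e-04). ida-1 went the other way, since its effect was larger in young animals; in old animals it had 27.1, 23.7, 30.3, 22.6 and 28.6 CPM in wild type and 33.4, 33.2, 36.6, 33.9 and 35 in mutants. The difference was -0.52 on the log2 scale (SE 0.11, edgeR adjusted p = 5.02e-04). rpm-1 had 11.7, 10.9, 12.3, 11.3 and 8.93 CPM in young wild type and 12.8, 11.8, 12.6, 11.5 and 10.9 in young mutants, then 16.6, 16.6, 16.6, 13.9 and 17.1 and 19.1, 23.3, 23.1, 22.7 and 22.1 in old animals. The young groups overlapped and the old ones did not, and the effect was higher in old animals by 0.37 on the log2 scale (SE 0.11, edgeR adjusted p = 0.00932). unc-11 was below wild type in young mutants (107, 118.8, 106, 110.1 and 106 CPM against 123, 121, 114, 130.4 and 142) and above it in old ones (102, 101, 105, 100.2 and 94.9 against 97.3, 89.5, 96.6, 80.5 and 95.1), with a difference of 0.37 on the log2 scale (SE 0.07, edgeR adjusted p = 3.44e-04). With library size as the only scaling 4 genes were higher and 4 lower, and without wild-type young replicate 1 the lower count was 4 in place of 1.

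Between 25 and 20 °C in old animals, 15 genes had a higher octr-1 effect at 25 °C and 11 a lower one (26.9% and 28.0% over all genes; 54.8% both ways). All 4 channel genes and 4 of 6 SNARE and partner genes were among the 15, and 3 of 4 endocytosis genes were among the 11. ric-3 had 8.83, 7.95, 7.88, 9.39 and 8.44 CPM in wild type and 8.59, 8.81, 9.41, 8.67 and 10.4 in mutants at 20 °C, where the groups overlap, and lay far apart at 25 °C as above. Its effect was higher at 25 °C by 0.97 on the log2 scale (SE 0.09, edgeR adjusted p = 1.64e-11). unc-10 was higher in mutants at both temperatures, and by more at 25 °C, with a difference of 0.70 on the log2 scale (SE 0.10, edgeR adjusted p = 2.10e-07). ric-4 had 5.64, 6.95, 7.76, 8.05 and 6.05 CPM in wild type and 6.47, 7.99, 7.40, 6.53 and 7.26 in mutants at 20 °C, and 6.60, 6.16, 6.56, 7.04 and 5.68 and 9.92, 9.20, 11.3, 10.8 and 9.70 at 25 °C. The groups overlapped at 20 °C and not at 25 °C, and the difference was 0.63 on the log2 scale (SE 0.12, edgeR adjusted p = 3.40e-05). The 3 deepest differences the other way were those of unc-25, unc-26 and egl-3. unc-25 had 4.02, 3.5, 4.18, 2.70 and 3.73 CPM in wild type and 3.68, 4.11, 3.20, 3.99 and 3.96 in mutants at 20 °C, which overlap, and its effect differed by -0.78 on the log2 scale (SE 0.14, edgeR adjusted p = 1.03e-05). For unc-26 the values at 20 °C were 74.4, 71.3, 75.0, 66.2 and 71.5 CPM in wild type and 70.5, 69.3, 71.4, 70.4 and 69.4 in mutants. The groups overlapped there and the difference was -0.72 on the log2 scale (SE 0.06, edgeR adjusted p = 4.76e-13). For egl-3, with the 2 low wild-type libraries at 20 °C already given, it was -0.59 on the log2 scale (SE 0.18, edgeR adjusted p = 0.00860). Library size as the only scaling moved the median of all genes in this test by 0.16 and gave 21 higher and 7 lower vesicle genes.

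Between 15 and 20 °C the octr-1 effect differed in fewer genes, 3 higher at 15 °C and 4 lower (8.01% and 12.6% over all genes; 20.6% both ways). unc-13 had 20.4, 19.5, 22, 18.4 and 20.6 CPM in wild type and 26.2, 27.2, 30.5, 27 and 29.4 in mutants at 20 °C, and 31.4, 34.0, 32.2, 34.2 and 32.0 and 55.9, 56.4, 56, 53.2 and 55.0 at 15 °C. Mutants were above wild type at both temperatures, and by more at 15 °C, with a difference of 0.24 on the log2 scale (SE 0.07, edgeR adjusted p = 0.0132). unc-10 gave a like value, 0.25 on the log2 scale (SE 0.09, edgeR adjusted p = 0.0449), which missed the threshold without any 1 of 10 of the 20 libraries and with no filter on low counts. unc-18 had 55.2, 55.8, 58.6, 57.8 and 57.6 CPM in wild type and 55.8, 51.8, 55.0, 52.5 and 52.4 in mutants at 20 °C, and 70.6, 64.6, 69.0, 70.1 and 68.5 and 75.2, 72.4, 76.6, 73.9 and 72.5 at 15 °C. The mutant mean was below wild type at 20 °C without passing and above it at 15 °C, and the difference was 0.16 on the log2 scale (SE 0.05, edgeR adjusted p = 0.0216), a call lost with no filter. sad-1 and syd-1 had a smaller rise in mutants at 15 than at 20 °C, with differences of -0.34 on the log2 scale (SE 0.10, edgeR adjusted p = 0.0127) and -0.39 on the log2 scale (SE 0.12, edgeR adjusted p = 0.0144), and unc-25 one of -0.47 on the log2 scale (SE 0.15, edgeR adjusted p = 0.0292). The call of unc-25 was lost without any 1 of 9 libraries, and those of unc-25 and syd-1 with all 8 groups in 1 fit. ric-19 was the fourth lower gene (-0.29).

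**Figure D4:**
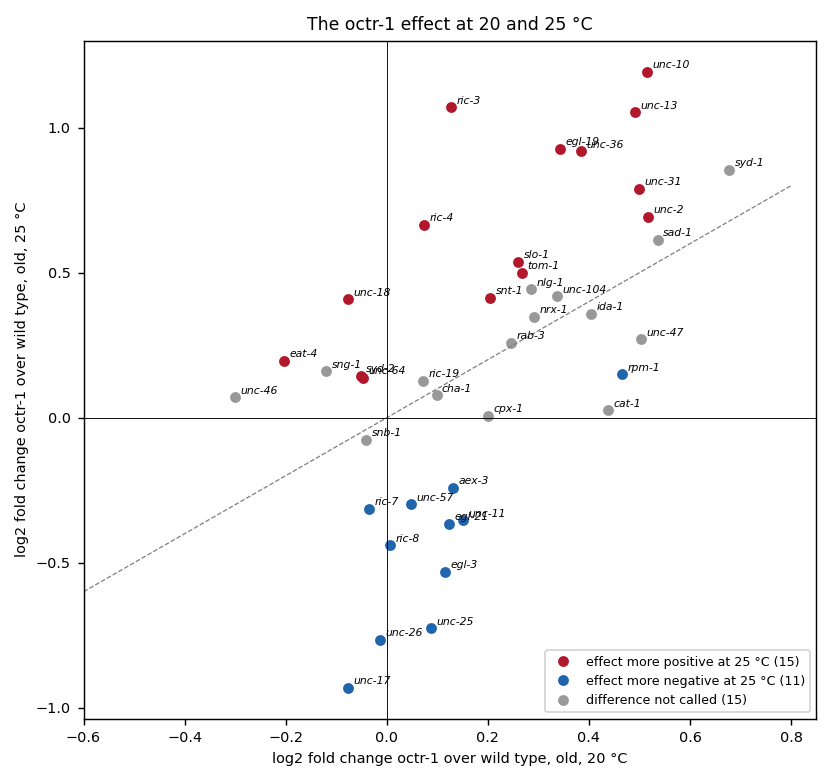
Log2 fold change of octr-1 mutants over wild type in old animals at 20 °C (x axis) and at 25 °C (y axis) for each vesicle gene, with the line of equal effect dashed. ric-3, unc-10 and egl-19 lie above the line, and unc-17, unc-25, unc-26 and egl-3 lie below it.

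In old animals of both genotypes most of the set was higher at 15 °C than at the other temperatures. Against 20 °C, 32 of 41 genes were higher and 2 lower at 15 °C in wild type (30.5% and 33.4% over all genes; 63.9% both ways), and 34 of 40 were higher and 2 lower in mutants (31.7% and 34.8%; 66.5% both ways). Against 25 °C, 33 of 40 were higher and 3 lower at 15 °C in wild type (38.2% and 40.8%; 79% both ways), and 33 of 41 were higher and 3 lower in mutants (38.6% and 40.4%; 78.9% both ways). The medians were 0.50 and 0.62 on the log2 scale in wild type and 0.60 and 0.65 in mutants, against -0.02 to 0.00 over all genes. These tests share the 15 °C libraries within a genotype. All 10 priming and active-zone genes and all 4 dense-core genes were higher at 15 °C in each of the 4 tests, and 26 of the 40 genes tested in all were, against 17.97% of 15119 genes. In mutants against 25 °C, library size as the only scaling moved the median of all genes by -0.17 and gave 26 higher and 6 lower.

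sad-1 had the largest temperature range. In old wild type it had 19.4, 18, 19.8, 16.8 and 19.3 CPM at 15 °C, 7.87, 5.65, 7.09, 6.38 and 6.98 at 20 °C and 2.48, 2.53, 2.97, 2.82 and 3.21 at 25 °C. In old mutants it had 20.8, 22.1, 22.2, 21.3 and 21.9, 8.62, 10.4, 10.7, 9.24 and 9.66 and 4.19, 4.5, 3.70, 5.05 and 4.09 in the same order. No 2 temperatures overlapped in either genotype, and sad-1 at 15 °C was 2.74-fold and 6.58-fold higher than at 20 and 25 °C in wild type, and 2.19-fold and 4.94-fold higher in mutants (limma adjusted p = 1.25e-11, 6.43e-18, 2.22e-12 and 2.69e-17). ric-19 followed the same order in wild type, with 26.4, 28.1, 25.5, 27 and 27.1 CPM at 15 °C, 12.2, 12, 11.4, 12.1 and 11.7 at 20 °C and 7.72, 7.16, 8.11, 7.36 and 7.01 at 25 °C. It was 2.25-fold and 3.56-fold higher at 15 °C there, and 2.84-fold higher at 15 than at 25 °C in mutants (22.5, 23.6, 25.9, 22.3 and 24 against 7.65, 8.88, 8.71, 8.16 and 7.52 CPM).

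syd-1 and unc-2 gave the same order. syd-1 had 6.63, 7.33, 7.29, 6.19 and 6.25 CPM at 15 °C and 2.49, 3.29, 3.21, 2.73 and 3.0 at 20 °C in wild type, 2.28-fold higher at 15 °C with no overlap (limma adjusted p = 2.94e-09). unc-2 had 40.8, 42.8, 44.9, 43.4 and 43.4 CPM at 15 °C and 14, 14.5, 14.5, 12.5 and 14.2 at 25 °C in wild type, 3.07-fold higher (limma adjusted p = 1.20e-17). In mutants the leading rises over 20 °C, after sad-1, were those of ida-1 and unc-10. ida-1 had 75.2, 76.8, 75.0, 73.4 and 76.5 CPM at 15 °C in mutants, above every mutant library at 20 °C, and was 2.15-fold higher (limma adjusted p = 3.65e-15). unc-10 had 28.2, 32.4, 32.5, 30.8 and 31.6 CPM at 15 °C against 13.9, 15.2, 14.8, 13 and 14.1 at 20 °C, 2.15-fold higher (limma adjusted p = 8.23e-13). cat-1 had 2.48, 2.29, 2.45, 2.37 and 2.38 CPM in mutants at 15 °C and 0.740, 0.607, 0.720, 0.60 and 0.620 at 25 °C, with no overlap, and was 3.49-fold higher (limma adjusted p = 1.24e-11).

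Of 6 SNARE genes and partners, 5 were higher at 15 than at 20 °C in each genotype, against 30.5% of all genes in wild type and 31.7% in mutants. snb-1 was 1.13-fold higher at 15 than at 20 °C in wild type and 1.09-fold higher in mutants, and unc-64 1.2-fold and 1.21-fold. In the same order unc-18 was 1.20-fold and 1.36-fold higher, ric-4 1.3-fold and 1.57-fold, and cpx-1 1.53-fold and 1.55-fold. tom-1 did not pass against 20 °C in either genotype (log2 fold changes 0.08 and 0.01). Among transmitter genes, eat-4 was 1.91-fold and 1.99-fold higher at 15 than at 20 °C and cha-1 1.5-fold and 2.04-fold. unc-25 did not pass in wild type (log2 fold change 0.04) and was 1.34-fold lower in mutants.

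A small group was lower at 15 °C. ric-8 had 51.3, 38.7, 45.3, 44.7 and 47.2 CPM at 15 °C, 52.5, 52.8, 56.3, 56.5 and 55.0 at 20 °C and 62.9, 59.6, 62.9, 61.2 and 60.4 at 25 °C in wild type. It was 1.21-fold and 1.36-fold lower at 15 °C, without overlap, and 1.12-fold lower than at 20 °C in mutants (47.1, 49.8, 49.1, 49.5 and 50.5 against 56.9, 55.1, 52.7, 52.4 and 54.2 CPM; limma adjusted p = 4.77e-04, 3.33e-07 and 4.84e-04). ric-7 had 105, 97.5, 103.5, 103 and 102 CPM at 15 °C, 118, 115.7, 121, 111 and 119.1 at 20 °C and 132, 129.5, 134, 129 and 132 at 25 °C in wild type. The 3 sets were fully separated, and ric-7 was 1.14-fold and 1.29-fold lower at 15 °C. unc-57 had 124, 134, 129.8, 133 and 139.7 CPM at 15 °C and 161, 160.3, 162, 155 and 162 at 25 °C in wild type, 1.22-fold lower at 15 °C. In mutants the genes lower at 15 than at 25 °C were others. ric-3 had 17.1, 16.1, 17.4, 16.1 and 15.9 CPM at 15 °C and 19.9, 17.9, 19.3, 19.97 and 19.3 at 25 °C in mutants and was 1.19-fold lower. tom-1 had 22.8, 21.4, 21.9, 22.5 and 20.3 and 25.4, 25.5, 25.9, 23.2 and 25.9 CPM and was 1.18-fold lower, and unc-36 was 1.11-fold lower. unc-57 and ric-8, called 1.06-fold and 1.07-fold higher at 15 than at 25 °C in mutants, had values on the other side of 0 with library size as the only scaling (log2 fold changes -0.08 and -0.08), where unc-57 passed as lower and ric-8 did not pass.

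Against 20 °C, animals at 25 °C had lower levels of part of the set, and the genotypes differed. In wild type 4 of 41 genes were higher and 17 lower, against 30.1% and 33.6% over all genes (63.7% both ways). In mutants 11 were higher and 21 lower, against 37.3% and 37.7% (75.0% both ways). Both ways together, 21 of 41 were called in wild type, under the share of all genes. In mutants 32 of 41 were called, near that share. With library size as the only scaling the median of all genes in the mutant comparison moved by 0.22, and 16 were higher and 14 lower. By name, 11 of 41 genes were lower in both genotypes, a share near the 24.1% of 15150 genes. They were snb-1, unc-31, the rab-3 exchange factor gene aex-3, syd-1, syd-2, sad-1, rpm-1, ida-1, ric-19, unc-2 and nrx-1. Of these, snb-1 turned to higher in mutants with library size as the only scaling. sad-1 was 2.46-fold lower at 25 °C in wild type and 2.29-fold lower in mutants (edgeR adjusted p = 8.30e-10 and 1.40e-13). syd-2 had 31.9, 29.4, 29.7, 27.8 and 29.1 CPM at 25 °C and 55.1, 55.0, 53.3, 59.2 and 56.6 at 20 °C in wild type, 1.92-fold lower with no overlap, and unc-2 was 1.73-fold lower from the values at 20 °C of 24.4, 24.1, 24.9, 21.9 and 23.1 CPM. rpm-1 had 10.4, 10.6, 11.7, 9.30 and 11.2 CPM in mutants at 25 °C, all under the mutant libraries at 20 °C, and was 2.10-fold lower (edgeR adjusted p = 6.78e-15). aex-3 had 9.75, 11.1, 10.5, 10.3 and 10.6 CPM in mutants at 25 °C and 18.2, 16.9, 18.6, 18.6 and 17.9 at 20 °C, 1.76-fold lower.

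Other genes moved differently in each genotype between 20 and 25 °C. unc-18, unc-13 and unc-10 were lower at 25 °C in wild type (1.28-fold, 1.17-fold and 1.33-fold) and higher in mutants (1.11-fold, 1.27-fold and 1.22-fold). unc-26, unc-57, ric-7 and ric-8 were higher at 25 °C in wild type and lower in mutants, and the falls of unc-57 and ric-7 in mutants turned to rises with library size as the only scaling. For these 7 genes the difference of the effects itself passed, from -0.72 for unc-26 to 0.70 for unc-10 on the log2 scale. In wild type unc-57 was 1.18-fold, ric-8 1.11-fold and ric-7 1.10-fold higher, each with no overlap. In mutants ric-3 was 2.06-fold higher (edgeR adjusted p = 2.66e-15). egl-19 had 35.1, 35, 34.7, 33.2 and 34.2 CPM in mutants at 25 °C and 21.3, 24.2, 24.2, 25 and 24.7 at 20 °C, 1.42-fold higher. unc-36, the alpha2-delta subunit that accompanies these channels, had 15.2, 13.5, 15.7, 14.1 and 14.6 and 9.97, 10.1, 10.2, 9.60 and 10.8 CPM, 1.42-fold higher. In wild type egl-19 and unc-36 did not pass between these temperatures (log2 fold changes -0.10 and -0.05). Pharyngeal muscle markers were 5 higher and 0 lower of 5 in this mutant comparison, with summed levels of 122 to 139 CPM at 25 °C and 42.3 to 46.6 at 20 °C, and their part was not tested.

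**Figure D5:**
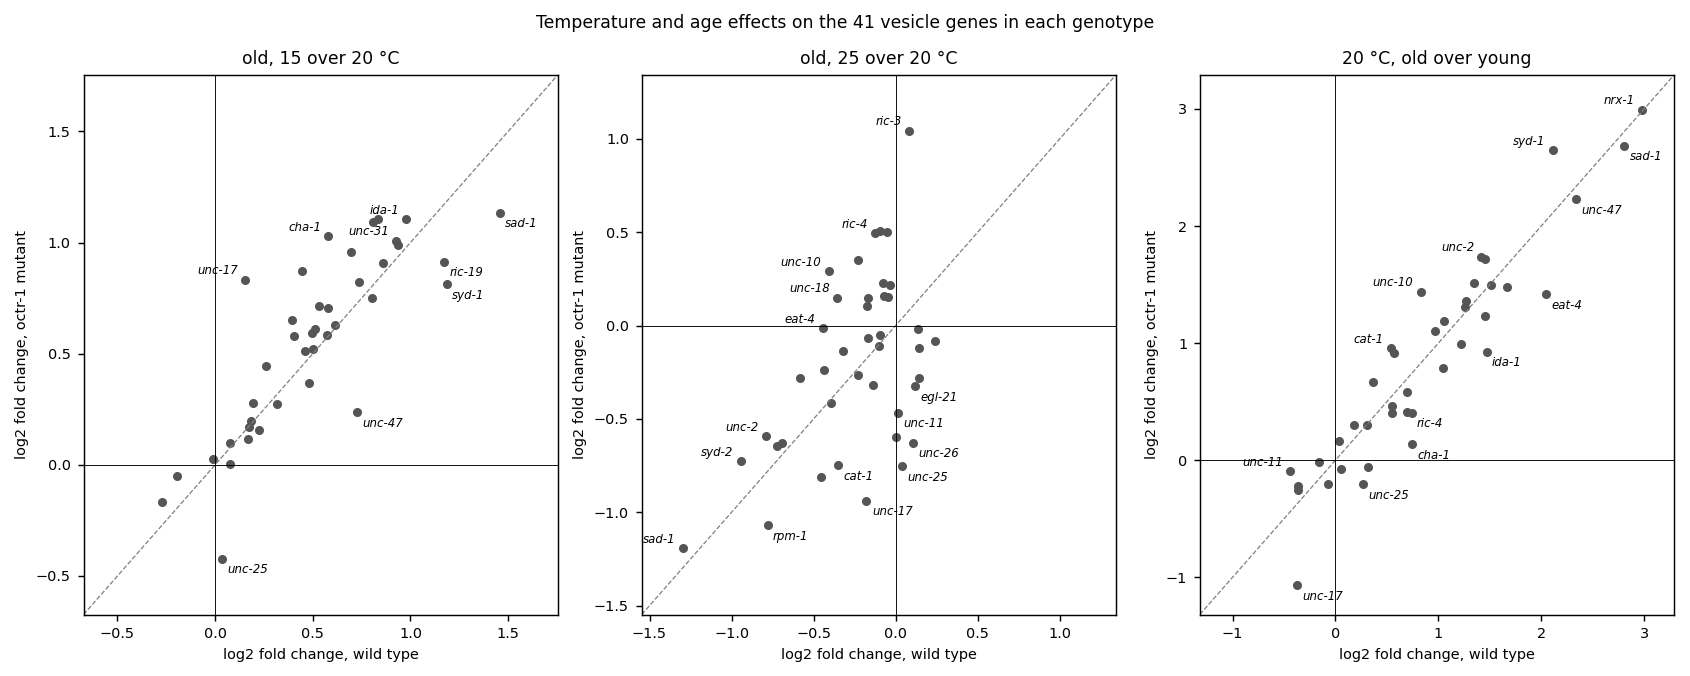
Log2 fold change in wild type (x axis) and in octr-1 mutants (y axis) of each vesicle gene for old animals at 15 over 20 °C, old animals at 25 over 20 °C, and old over young animals at 20 °C, with the line of equal change dashed. Most genes lie above 0 on both axes in the panels for 15 over 20 °C and for age. In the panel for 25 over 20 °C ric-3 and sad-1 mark the ends on the mutant axis. The falls with age of unc-11, unc-57 and ric-7 turned to rises with library size as the only scaling.

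Between young adults and day 14 at 20 °C, most of the set was higher in old animals. In wild type 30 of 40 genes were higher and 4 lower (46% and 39.3% over all genes; 85.3% both ways), with a median log2 fold change of 0.74 against 0.09 over all genes. In mutants 30 of 40 were higher and 5 lower (45.2% and 40.3%; 85.5% both ways), with a median of 0.85 against 0.07. Library size as the only scaling moved the median of all genes by 0.58 in wild type and 0.54 in mutants, and gave 39 higher and 0 lower in wild type and 39 higher and 1 lower in mutants. All 10 priming and active-zone genes, all 4 channel genes and both adhesion genes were higher in each genotype, and 29 of the 40 genes tested in both were higher in both, against 40.02% of 14537 genes. Of these, unc-47 had 1 to 7 reads per young wild-type library and 3.16 to 7.07 normalized counts per young mutant library. In both genotypes it passed the minimum only through its old libraries, where it is high. These age tests share the 20 °C libraries with the temperature and genotype tests.

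nrx-1, the neurexin that joins synaptic sites, had 2.38, 1.86, 2.23, 2.28 and 2.37 CPM in young and 18.5, 16.2, 17.7, 16.6 and 16.9 in old wild type. In mutants it had 2.15, 2.66, 2.76, 3.09 and 2.55 and 21.1, 20.8, 21.8, 19.5 and 20.9. Every old library was several times above every young one, 7.86-fold in wild type and 7.97-fold in mutants (edgeR adjusted p = 4.31e-17 and 1.89e-19). sad-1 had 1.07, 0.730, 1.04, 1.06 and 1.04 CPM in young wild type and 1.2, 1.39, 1.77, 1.59 and 1.64 in young mutants. Compared with the old libraries at 20 °C given above, it was 7.01-fold higher in old wild type and 6.44-fold higher in old mutants. syd-1 had 0.871, 0.730, 0.636, 0.506 and 0.647 CPM in young wild type and 0.730, 0.778, 0.948, 1.03 and 0.291 in young mutants, against 4.17, 4.93, 4.59, 4.89 and 4.72 in old mutants. It was 4.33-fold and 6.26-fold higher with age, without overlap in either genotype. By role, the vesicular glutamate transporter gene eat-4, with 7 to 19 reads per young library, was 4.13-fold higher with age in wild type, unc-64 2.33-fold, snt-1 2.74-fold and ric-19 3.18-fold.

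Of the genes that fell with age, unc-11 was 1.36-fold lower in old wild type, ric-7 1.29-fold and unc-57 1.28-fold, and all 3 turned to rises with library size as the only scaling. Their young wild-type libraries had 123, 121, 114, 130.4 and 142 CPM for unc-11, and the old ones 97.3, 89.5, 96.6, 80.5 and 95.1. ric-7 had 152, 151, 148, 151 and 161 CPM in young and 118, 115.7, 121, 111 and 119.1 in old wild type. unc-57 had 157, 186, 177, 172 and 174 CPM in young and 133, 131, 143, 128 and 131 in old wild type. On this scale none of the 3 had overlapping ages. ric-8, the other gene called lower in old wild type (log2 fold change -0.16), also turned to a rise with library size alone (0.42). So did unc-11 in mutants (-0.09 and 0.44). In mutants ric-7 was 1.20-fold (135, 145, 139.5, 136 and 134 CPM in young and 111, 115, 116.4, 112 and 110.5 in old), unc-57 1.17-fold (160.1, 162, 159, 169 and 159.5 and 145, 135, 134, 136 and 132) and unc-18 1.15-fold lower (62.0, 64.4, 62.2, 60.4 and 64.6 in young), and these too turned to rises under that scaling. unc-17 was 2.10-fold lower with age in mutants, from 1.64 ± 0.168 to 0.768 ± 0.118 CPM (SD, n = 5 each), and did not pass in wild type (1.09 ± 0.319 and 0.830 ± 0.198 CPM).

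Marker genes outside the set were also called in these temperature and age tests. Over all genes, 30.5% were higher and 33.4% lower at 15 against 20 °C in wild type, and 31.7% and 34.8% in mutants. At 15 against 25 °C the shares were 38.2% and 40.8% in wild type and 38.6% and 40.4% in mutants. For 25 against 20 °C they were 30.1% and 33.6% in wild type and 37.3% and 37.7% in mutants. Neuron markers were 8 higher and 1 lower of 13 at 15 against 20 °C and 11 higher and 1 lower of 13 against 25 °C in wild type, and 7 higher and 2 lower of 13 and 12 higher and 0 lower of 14 in mutants. At 25 against 20 °C they were 0 higher and 11 lower of 13 in wild type and 0 higher and 8 lower of 13 in mutants. For the same temperatures glia markers were 0 higher and 4 lower of 6 in wild type and 1 higher and 5 lower of 6 in mutants, intestine markers 4 higher and 3 lower of 8 and 0 higher and 6 lower of 8, germline markers 6 higher and 2 lower of 13 and 1 higher and 9 lower of 13, body wall muscle markers 8 higher and 1 lower of 10 and 4 higher and 5 lower of 10, and epidermis markers 6 higher and 1 lower of 8 and 1 higher and 5 lower of 8. The summed level of neuron markers in wild type was 942 to 1023 CPM at 15 °C, 847 to 890.3 at 20 °C and 630.2 to 657 at 25 °C, and in young animals 614 to 637. Intestine markers at 15 against 20 and 25 °C were 0 higher and 8 lower of 8 and 0 higher and 8 lower of 8 in wild type and 0 higher and 8 lower of 8 and 1 higher and 7 lower of 8 in mutants, with medians from -1.04 to -1.80 on the log2 scale. Glia markers in the same 4 tests were 5 higher and 0 lower of 6, 6 higher and 0 lower of 6, 5 higher and 0 lower of 6 and 6 higher and 0 lower of 6. Body wall muscle markers were 1 higher and 6 lower of 10, 1 higher and 9 lower of 10, 3 higher and 7 lower of 10 and 2 higher and 8 lower of 10, pharyngeal muscle markers 0 higher and 4 lower of 5, 1 higher and 4 lower of 5, 1 higher and 4 lower of 5 and 0 higher and 5 lower of 5, and germline markers 0 higher and 8 lower of 13, 0 higher and 13 lower of 13, 0 higher and 10 lower of 13 and 7 higher and 4 lower of 13. With age neuron markers were 6 higher and 3 lower of 12 in wild type and 7 higher and 4 lower of 13 in mutants. Over all genes 46% were higher and 39.3% lower with age in wild type, and 45.2% and 40.3% in mutants. The counts of higher neuron markers lie near those shares. Median log2 fold changes of neuron markers with age were 0.12 in wild type and 0.61 in mutants, against 0.09 and 0.07 over all genes. Over the same interval intestine markers were 0 higher and 8 lower of 8 in wild type (2932 to 3738 CPM in young and 509.6 to 568 in old), body wall muscle markers 0 higher and 9 lower of 10 (2323 to 3173 and 740.2 to 933), and germline markers 0 higher and 12 lower of 13 (12839 to 14871 and 5944 to 7106). Glia markers were 4 higher and 0 lower of 6 with age in wild type and 4 higher and 0 lower of 6 in mutants. The part of these shifts between tissues in the levels of the vesicle genes was not tested.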

How the data were processed

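Total RNA of whole animals was made into libraries with a stranded kit for polyadenylated RNA, per the labels' protocols. Per the submitters' processing notes, the tools were bcl2fastq, HISAT2 2.2.1, featureCounts and DESeq2 1.31.16, with genome build ce10; the strand setting and the handling of multi-mapped reads are not given in the sources used here. The authors deposited 9 tables of 42048 features, 1 per comparison. Their sample columns hold a signal that is not raw reads: normalized counts that the authors had divided by size factors (0.794 to 1.253) within each table. The log2 fold changes that the authors deposited beside them were used here only to check column names.

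Whole reads were recovered by finding the factor that makes a column whole: 100.0% of 3784320 values came out whole within 0.001. Matching the 90 columns by these reads gave the 40 libraries, and 10 columns of the mutant table of 25 and 20 °C held the same reads as libraries labelled with the other temperature. The authors' fold changes follow the exchanged names in 2269 of 2269 features with a mean of at least 10 and an absolute log2 fold change of at least 1, so this table was used only as an alternative. Each genotype comparison and each comparison with 15 °C was tested within its table on log2(value + 1) with the robust trend fit of limma 3.58.1 in R 4.3.3, a scale that understates changes of low genes. The other temperature and age tests and the genotype-by-condition terms were quasi-likelihood tests of the recovered reads in edgeR 4.0.16 with TMM factors. Tests took genes that reached 10 in 5 or more libraries, all genes were adjusted together by Benjamini-Hochberg, and a call is an adjusted p under 0.05. On recovered reads, edgeR called 2827 genes higher and 2554 lower in young mutants and 3806 and 3634 in old mutants at 20 °C. Other tools were DESeq2 1.42.0, numpy 2.4.6, pandas 2.3.3 and matplotlib 3.10.9. Some of the fits were also run on simulated counts, whose outcome is not given here and carries no weight for the results. Exon lengths and overlaps come from the WBcel235 annotation; no coordinates or sequences are printed.

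The members, role groups, marker lists and alternatives were chosen with earlier results of these data known. Values of every library are given for the called genes with the largest changes, up to 4 in each direction in a genotype comparison and up to 3 in each other test, whose groups do not overlap and whose mean is at least 50; genes named beside these illustrate their role group and were chosen after their values were seen. Alternatives were edgeR, DESeq2, RLE scaling, a pseudocount of 0.1, no filter, library size as the only scaling, a replicate block, all 8 groups in 1 fit, and leaving out each library.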

Additional observations from a re-analysis of the deposited data

Results flagged for a closer look

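In 18 of 328 sets of 5 libraries (41 genes in 8 groups), 1 library lay apart from the other 4 by Dixon's criterion; chance gives about 1 in 20. Old wild type at 25 °C had 5 of them, with lowest libraries of 149 CPM for snb-1, 16.6 for tom-1, 155 for unc-57 and 12.5 for unc-2, and a highest of 2.69 for syd-1. Old mutants at 25 °C had a lowest library of 23.2 for tom-1 and a highest of 14.3 for nrx-1. At 20 °C the lowest library was 13.9 for rpm-1 in old wild type, and 19.1 for rpm-1 and 21.3 for egl-19 in old mutants, whose highest for nlg-1 was 7.96. At 15 °C old mutants had lowest libraries of 112 for unc-11 and 103 for ric-7, and old wild type highest ones of 1.72 for unc-47 and 1.68 for cat-1. Young wild type had a lowest library of 0.730 for sad-1 and a highest of 4.51 for unc-25, and young mutants a lowest of 10.1 for egl-19.

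By a test of the difference itself, the octr-1 effect in old against young animals was higher in 6 genes and lower in 1. Over all genes it was 11.1% and 16.7%. At 25 against 20 °C the effect was higher in 15 genes and lower in 11 (26.9% and 28.0% over all genes). At 15 against 20 °C it was higher in 3 and lower in 4 (8.01% and 12.6%). The octr-1 effect is given here (log2) for the 16 of these cases selected by rule, up to 3 in each direction of a test. From young to old at 20 °C it differed by 0.64 for unc-10, 0.37 for rpm-1, 0.37 for unc-11 and -0.52 for ida-1. From 20 to 25 °C it differed by 0.97 for ric-3, 0.70 for unc-10, 0.63 for ric-4, -0.78 for unc-25, -0.72 for unc-26 and -0.59 for egl-3. From 20 to 15 °C it differed by 0.25 for unc-10, 0.24 for unc-13, 0.16 for unc-18, -0.47 for unc-25, -0.39 for syd-1 and -0.34 for sad-1; the values of unc-10 and unc-25 missed the threshold without some single libraries, those of unc-10 and unc-18 with no filter, and those of unc-25 and syd-1 with all 8 groups in 1 fit.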

How the results depend on the processing

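Of 82 values of single genes selected by rule, alternatives other than leaving out a library kept direction and call in 522 cases, lost the call in 6 and reversed in 12, and leaving out 1 library kept 961 and lost 19. The cause was not tested unless stated. With library size as the only scaling, the counts of vesicle genes became 19 higher and 1 lower in young mutants, 6 lower in mutants at 15 against 25 °C, 0 (wild type) and 1 (mutants) lower with age, 4 lower for the octr-1 effect in old against young, and 7 lower for it at 25 against 20 °C. Under it falls with age reversed in wild type, to 0.14 for unc-11, 0.22 for ric-7, 0.22 for unc-57 and 0.42 for ric-8 (log2). In mutants falls reversed to 0.28 for ric-7, 0.31 for unc-57, 0.34 for unc-18 and 0.44 for unc-11. Summed levels by library size alone were 698 CPM in young wild type with 1169, 1456 and 1145 CPM on day 14, 24 and 9, and in mutants 721, then 1269, 1653 and 1305 CPM. All 8 groups in 1 fit gave 1 lower gene in old mutants at 20 °C, 5 lower for the effect in old against young, and 5 higher and 2 lower for the effect at 15 against 20 °C. For that last effect no filter gave 1 higher and DESeq2 gave 5 higher. With the column names as given, mutants at 25 against 20 °C gave 20 higher and 11 lower, and ric-3 (-1.05), egl-19 (-0.51), unc-36 (-0.50), sad-1 (1.19), rpm-1 (1.07) and aex-3 (0.81) reversed, as exchanged names must. Leaving out 1 library gave 7 to 15 higher in young mutants (7 without young wild-type replicate 4), 1 to 4 lower for the effect in old against young (4 without young wild-type replicate 1), and 4 to 8 in all and 2 to 4 lower for the effect at 15 against 20 °C (4 and 2 without old mutant 20 °C replicate 5). Correlations of the deviations of same-numbered replicates ran from -0.33 to 0.37 and passed 0.1 in at most 3 of 5 pairs of a comparison; all 5 pairs over 0.1 were required to treat the numbers as pairs, so no pairing was used. With a replicate block 12 higher and 5 lower were called in young mutants, 18 and 0 in old mutants at 20 °C, 27 and 3 at 15 °C and 22 and 10 at 25 °C. Genes under about 50 counts, such as unc-17, unc-46 and unc-47, have wide errors at this depth.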

Other observations

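Beside the 41 genes, 66 other genes of vesicle traffic, release and its modulation were in the files. In old mutants against wild type they were 25 higher and 6 lower of 64 tested at 20 °C, 28 higher and 8 lower of 64 at 15 °C and 28 higher and 23 lower of 64 at 25 °C, and 18 higher and 9 lower of 61 in young mutants. Over all genes tested, 22.8% were higher and 24.7% lower at 20 °C, 24.1% and 27% at 15 °C, 36.8% and 39.7% at 25 °C and 19.6% and 24.0% in young mutants, so the counts at 25 °C lie near those shares. The 4 comparisons gave medians of 0.10, 0.10, 0.04 and 0.09 on the log2 scale. At 15 against 25 °C they were 39 higher and 14 lower of 64 in wild type and 43 higher and 12 lower of 65 in mutants, against 38.2% higher and 40.8% lower over all genes in wild type and 38.6% and 40.4% in mutants. The genes given next were named after their values were seen. unc-79 and unc-80, which serve the sodium leak channel, were higher in all 4 genotype comparisons, unc-79 by 0.40, 0.73, 0.76 and 0.87 and unc-80 by 0.27, 0.41, 0.86 and 0.79 in young animals and old ones at 20, 15 and 25 °C. The diacylglycerol kinase gene dgk-1, which lowers the lipid that activates UNC-13, was also higher in all 4 (0.47, 0.49, 0.35 and 0.45), as was the calcium channel beta subunit gene ccb-1 (0.23, 0.58, 0.49 and 0.68). bas-1, which makes dopamine and serotonin, was lower in the 3 old comparisons (-0.48, -0.54 and -1.14). All these log2 fold changes passed an adjusted p under 0.05 by limma.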
